A study of Homo sapiens with 8 samples.

Results

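The response of OVSAHO cells to simvastatin was set against their response to L-778123 across the whole transcriptome. OVSAHO is an established line of human high-grade serous ovarian cancer. Simvastatin, a statin, blocks an early step of the mevalonate pathway, and L-778123 inhibits farnesyl transferase and geranylgeranyl transferase type I, the enzymes that attach the isoprenoid lipids to proteins. All arrays labelled OVSAHO were used, 2 with simvastatin and 2 with L-778123, which is 4 of the 8 arrays of the series. The other 4 hold the same pair of drugs in KURAMOCHI, a second ovarian cancer line. The question that the pair of drugs addresses is which effects of a statin do not come from the loss of protein prenylation, since the other drug acts at that step. How far each drug lowered prenylation in these cultures was not measured here. A difference between the drugs therefore need not be independent of prenylation. No untreated or vehicle array was analysed here, so each value below sets one drug against the other and cannot say which of them moved a gene. Doses and exposure times of the array cultures are not given in the sources used here. Nor do the labels say that the 2 arrays of a group came from separate cultures, so that p-values measure only the spread between these arrays, which may be technical.

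As background, the mevalonate pathway makes farnesyl and geranylgeranyl diphosphate. These feed cholesterol synthesis and are attached to small GTPases, which need the lipid to sit on membranes. A statin acts at the head of the pathway and lowers sterols as well as isoprenoids, while an inhibitor of the prenyltransferases acts past the branch that leads to sterols.

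A level below is the log2 intensity of a probe minus the 75th percentile of its array, so that 0 is the 75th percentile. A log2 fold change is the mean level with simvastatin minus the mean level with L-778123. A gene is called higher or lower with simvastatin where the Benjamini-Hochberg adjusted p of the limma fit was under 0.05 and the fold was at least 2. "Rose" and "fell" stand for such a call with simvastatin relative to L-778123. The array intensities at the 75th percentile were 367 and 324 with simvastatin and 437 and 411 with L-778123, and 53.1 to 57.5% of the 58162 probes were well above background. Arrays of one drug correlated at a Pearson's r of at least 0.996 over the tested probes, against 0.969 to 0.972 between the drugs. All 8 arrays lay on 1 slide, with the drugs at different positions, so position and drug cannot be told apart. The serous lineage was present, with all 16 lineage markers tested, among them PAX8 at a level of 4.82 and 4.89 with simvastatin and 4.08 and 4.16 with L-778123. Of the markers of other cell types, 2 of 10 fibroblast, 4 of 10 leukocyte, 5 of 9 endothelial and 2 of 5 mesothelial markers passed the filter. As the RNA is from whole cultures, fewer cells of a type and less RNA per cell cannot be told apart.

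Of 16287 genes with a probe well above background on both arrays of either drug, 931 rose and 956 fell, which is 5.72% and 5.87% of the genes tested. The other 14400 were not called, although 7320 genes passed the adjusted p at a fold under 2. The median log2 fold change over all genes was 0.0068 and the median absolute log2 fold change 0.33. A fold of at least 4 was reached by 217 genes that rose and 211 that fell. Dimmer genes were called more often than brighter ones, with 9.75% called higher and 9.11% lower among the 4072 genes with the lowest level and 2.73% and 3.29% among the 4072 with the highest. Of the 306 tested genes of the cell cycle lists, 169 fell and 2 rose, beside the 5.87% and 5.72% over all genes. With these lists and 21 genes named by the paper set aside, 19 of the 21 being tested here, 919 genes rose and 784 fell among 15965.

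**Figure D1:**
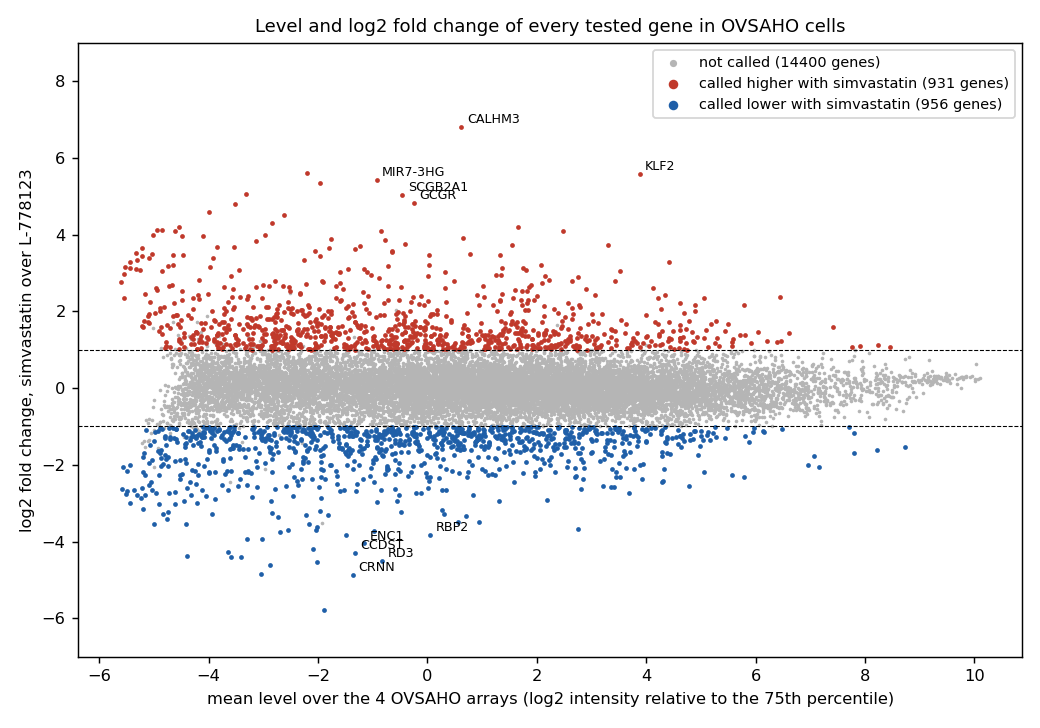
Mean level of each of the 16287 genes over the 4 OVSAHO arrays, as log2 intensity relative to the 75th percentile, against its log2 fold change with simvastatin over L-778123. Red points are the 931 genes called higher, blue points the 956 called lower, dashed lines mark a fold of 2, and the 5 highest and 5 lowest of the named genes carry their symbols.

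The 15 genes that rose most, among those well above background on all 4 OVSAHO arrays, were led by CALHM3, KLF2, MIR7-3HG, SCGB2A1 and GCGR. CALHM3, a pore subunit of the channel that releases ATP in taste cells, had levels of 3.99 and 4.06 with simvastatin and -2.81 and -2.75 with L-778123. Its log2 fold change of 6.81 (SE 0.36, adjusted p = 7.06e-05) was the largest of the named genes. KLF2, a Krüppel-like transcription factor known to be induced by statins in endothelium, stood at 6.65 and 6.69 against 0.98 and 1.21. MIR7-3HG, the host transcript of a miR-7 precursor, read 1.73 and 1.83 against -3.55 and -3.73, a log2 fold change of 5.42 (SE 0.54, adjusted p = 6.19e-04) that both of its probes shared in direction. The arrays of the drugs did not overlap for any of these genes, which is also so for 81.7% of all genes tested and is given below only as a description. SCGB2A1, a mammaglobin-related secretoglobin, and GCGR, the glucagon receptor, rose by 5.04 and 4.82 on the log2 scale.

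Some of the other genes of this group encode proteins of cell death or metabolic control. TNFSF10, the ligand TRAIL that engages death receptors, had levels of 4.53 and 4.49 with simvastatin and 0.38 and 0.47 with L-778123, and its 3 probes all rose. Its log2 fold change was 4.08 (SE 0.062, adjusted p = 8.42e-06). BBC3, the BH3-only protein PUMA, read 5.17 and 5.16 against 1.38 and 1.51, a log2 fold change of 3.72 (SE 0.070, adjusted p = 8.43e-06). In both genes the drugs lay far apart while arrays of one drug lay close together. DEPP1, a FOXO-dependent regulator of autophagy, rose by 4.19 (SE 0.14). PGM2L1, which makes a glucose bisphosphate, rose by 3.72, TMPRSS4, a membrane serine protease, by 3.75, the transporter-like SVOPL by 4.10 and C11orf96 by 3.85. LIMS3-LOC440895 and LIMS4, at 3.89 and 3.71, are near-identical copies whose probes may share target RNA, so they count as 1 uncertain signal.

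Among the 15 genes that fell most, CRNN, FLG and CCDST are neighbours in the epidermal differentiation complex of chromosome 1. CRNN, which encodes cornulin of the squamous cornified envelope, had levels of -3.81 and -3.78 with simvastatin and 1.07 and 1.05 with L-778123, a log2 fold change of -4.86 (SE 0.26, adjusted p = 6.87e-05). FLG, which encodes filaggrin, read 0.82 and 1.00 against 4.62 and 4.54, with all 3 of its probes lower (log2 fold change -3.67, adjusted p = 1.38e-05). The long noncoding CCDST lies beside FLG and read -3.80 and -3.15 against 0.87 and 0.75. In each case both simvastatin arrays lay below both L-778123 arrays. No overlap, in either direction, was seen in 81.7% of all genes tested.

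CCN2, the matricellular protein also called CTGF, stood at -4.18 and -3.49 with simvastatin and at -0.20 on both L-778123 arrays, a log2 fold change of -3.63 (SE 0.21, adjusted p = 9.34e-05). CCL2, the monocyte chemoattractant, read -0.996 and -0.93 against 2.34 and 2.38 (log2 fold change -3.33, adjusted p = 8.43e-06). Both genes showed no overlap between the drugs, as did 81.7% of all genes tested. ENC1, an actin-binding Kelch protein, fell by 4.04 on the log2 scale, RD3, a guanylate cyclase regulator of photoreceptors, by 4.505, and RBP2, a cellular retinol-binding protein, had -3.83 with the larger error of 0.52. The log2 fold change was -3.82 for SLC26A7, an anion exchanger, -3.72 for AOX1, aldehyde oxidase, -3.49 for ZBED2, a zinc finger repressor of interferon genes, -3.48 for ANKRD2, a stretch-responsive ankyrin repeat protein, and -3.37 for EPN3, an epsin of endocytosis. LINC00473, a noncoding RNA known to respond to cAMP, had -3.71, and PRAMEF4 -3.54, with the limit that it belongs to a multigene family of close copies.

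These folds depend on how background and low signals were handled. The normexp setting removes background and also adds an offset of 50 to each signal, and the part of each was not tested. With normexp correction of the spot signals the log2 fold changes of the 15 highest genes shrank to between 2.40 for LIMS3-LOC440895 and 5.79 for CALHM3. Those of the 15 lowest came to between -3.61 for FLG and -1.57 for EPN3, and CCN2 came to -1.96. All 30 stayed called in the same direction there.

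**Figure D2:**
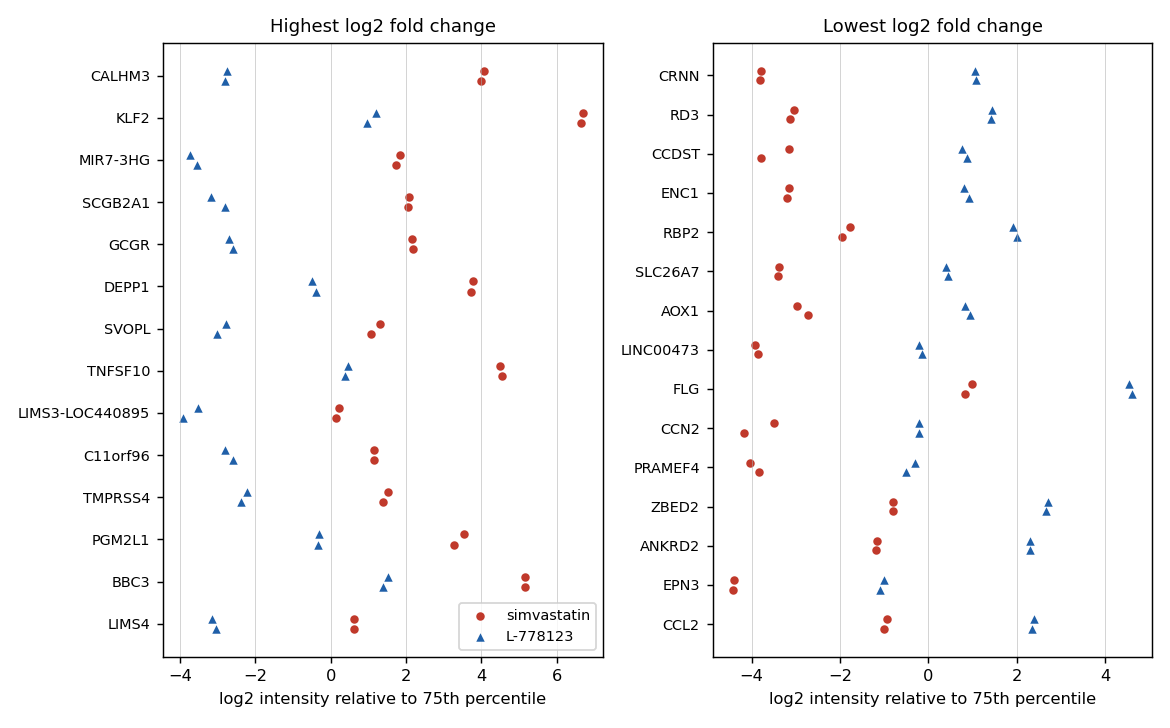
Level of 14 of the 15 genes with the highest (left) and of the 15 with the lowest (right) log2 fold change on each of the 4 OVSAHO arrays, as log2 intensity relative to the 75th percentile. Each gene has 2 red circles for simvastatin and 2 blue triangles for L-778123, and the circles and triangles lie apart, as in CALHM3 with 3.99 and 4.06 against -2.81 and -2.75, which the choice of the 29 genes drawn by fold and call had fixed.

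Some genes were well above background with one drug and not with the other, so that their fold is only a bound. At the probe read for each gene, 116 genes were measured with simvastatin alone and 289 with L-778123 alone. They hold 100 of the 931 genes that rose and 140 of the 956 that fell (5.72% and 5.87% of all genes), and as they passed the filter only through the drug where they are bright, their direction was set by it. With probes well above background on all 4 arrays, 794 genes rose and 771 fell. The adjusted p of such a gene rests on signals near background with one drug. One L-778123 array had the largest share of probes above background, 57.5% against 53.1 to 53.9% on the other 3, and its part in these counts was not tested. CHST1, a keratan sulfate sulfotransferase, was at least 45.3-fold higher with simvastatin (levels of 0.56 and 0.64, adjusted p = 1.69e-05). LSP1, a leukocyte actin-binding protein, was at least 24.4-fold higher at a dim probe but had a log2 fold change of 0.05 at its brightest, so that its probes disagree. HPGD, the prostaglandin-degrading dehydrogenase, was at least 17.2-fold higher, PTPRH, a receptor tyrosine phosphatase, at least 17.1-fold, CIMAP1C at least 15.2-fold and STMN4, a stathmin, at least 13.5-fold. On the other side LIX1 was at least 48.2-fold lower with simvastatin (levels of 1.07 and 0.91 with L-778123, adjusted p = 8.43e-06). MAMDC2 was at least 16.2-fold lower, CXCL14, an epithelial chemokine, at least 15.8-fold, PRAMEF15 at least 13.1-fold, ST6GAL2, a sialyltransferase, at least 11.52-fold and IL1R2, an interleukin decoy receptor, at least 10.5-fold.

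By RNA class, 852 of 14131 protein-coding genes rose and 824 fell, which is 6.03% and 5.83%, against 65 (4.37%) and 108 (7.25%) of 1489 long noncoding RNA genes. Probes that the array design names only as long noncoding transcripts leaned the same way, with 107 (3.31%) higher and 270 (8.34%) lower of 3237, beside 4.78% and 6.19% over all tested probes. Over all tested probes, 1023 were well above background with L-778123 only, with 508 called, and 297 with simvastatin only, with 238 called. The filter set the direction of such probes, and their part in the lean of the noncoding RNAs was not tested. Small nucleolar RNAs were rarely called, with 2 higher and 2 lower of 224. The 15 small nuclear RNA genes held 7 that fell, all of the SNAR family of NF90-binding RNAs, which are near-identical copies and were singled out after their values were seen. Among them SNAR-A3 read a mean level of 7.96 with simvastatin and 9.50 with L-778123 and SNAR-F 4.64 and 6.95, log2 fold changes of -1.54 and -2.31. RNU6ATAC, a spliceosomal RNA of the minor class that was also picked out after the fact, rose by 2.29.

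Noncoding RNAs were also picked by the form of their symbol (LINC, MIR, -AS, -DT or -IT), the 6 with the largest fitted change. Of these MIR7-3HG and LINC00473 are described above, as are CCDST and LIMS3-LOC440895, which are annotated as long noncoding RNAs and lie outside that form. LINC02593 rose by 3.56 on the log2 scale. SEMA5A-AS1 fell by 4.19 (SE 0.58, adjusted p = 0.0020), being well above background on 1 of the 2 simvastatin arrays. It overlaps SEMA5A, and on an array the strand of the probe decides which of the 2 RNAs is read. LINC01531 was above background with simvastatin only, at least 2.89-fold higher, and LINC01508 with L-778123 only, so that it was at least 3.90-fold lower. With normexp correction neither of these 2 was called, at log2 fold changes of 0.85 for LINC01531 and -0.62 for LINC01508.

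The genes of the pathway that simvastatin blocks differed little between the drugs. Of 21 genes of mevalonate and cholesterol synthesis, 1 rose and none fell, and their median log2 fold change of 0.23 compares with 0.0068 over all genes. LSS, lanosterol synthase, had levels of 3.34 and 3.30 with simvastatin and 2.22 and 2.25 with L-778123, a log2 fold change of 1.09 (SE 0.081, adjusted p = 2.12e-04) at 1 of its 2 probes. IDI1, the isopentenyl diphosphate isomerase, stood at 2.84 and 2.76 against 2.89 and 2.72, with overlapping groups. FDPS, farnesyl diphosphate synthase, had a log2 fold change of -0.58 and was not called.

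Around the pathway, 2 of 12 genes of sterol sensing and lipoprotein uptake rose (16.7%) and 1 fell (8.33%), beside 5.72% and 5.87% over all genes. INSIG1, which retains the SREBP complex in the endoplasmic reticulum, rose by 1.02 (SE 0.074), a call that was lost with normexp correction (0.98) and without simvastatin array 2 or L-778123 array 2 (0.99 each). VLDLR, a lipoprotein receptor, rose by 1.14, which was 0.57 and not called with normexp. SREBF1, the transcription factor of lipid synthesis, fell by 1.104 at its brightest probe but by 0.49 as the median of its 2 probes, which was not called. Among 10 LXR targets, ABCA1, the sterol efflux pump, fell by 1.36 with levels of -0.44 and -0.34 against 1.01 and 0.93, and SMPDL3A rose by 1.31 (0.71 and not called with normexp). No gene was called among 15 of fatty acid synthesis (median -0.21, or -0.135 with normexp).

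The enzymes that L-778123 inhibits showed no called difference either, with 0 of 10 genes of prenyl transfer and CAAX processing and a median of -0.05. FNTB, the beta subunit of farnesyltransferase, read 0.93 and 0.97 with simvastatin and 1.46 and 1.41 with L-778123, a log2 fold change of -0.48 with a 95% interval of -0.63 to -0.33. PGGT1B, the beta subunit of geranylgeranyl transferase type I, had a difference of 0.00 with an interval of -0.14 to 0.14.

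**Figure D3:**
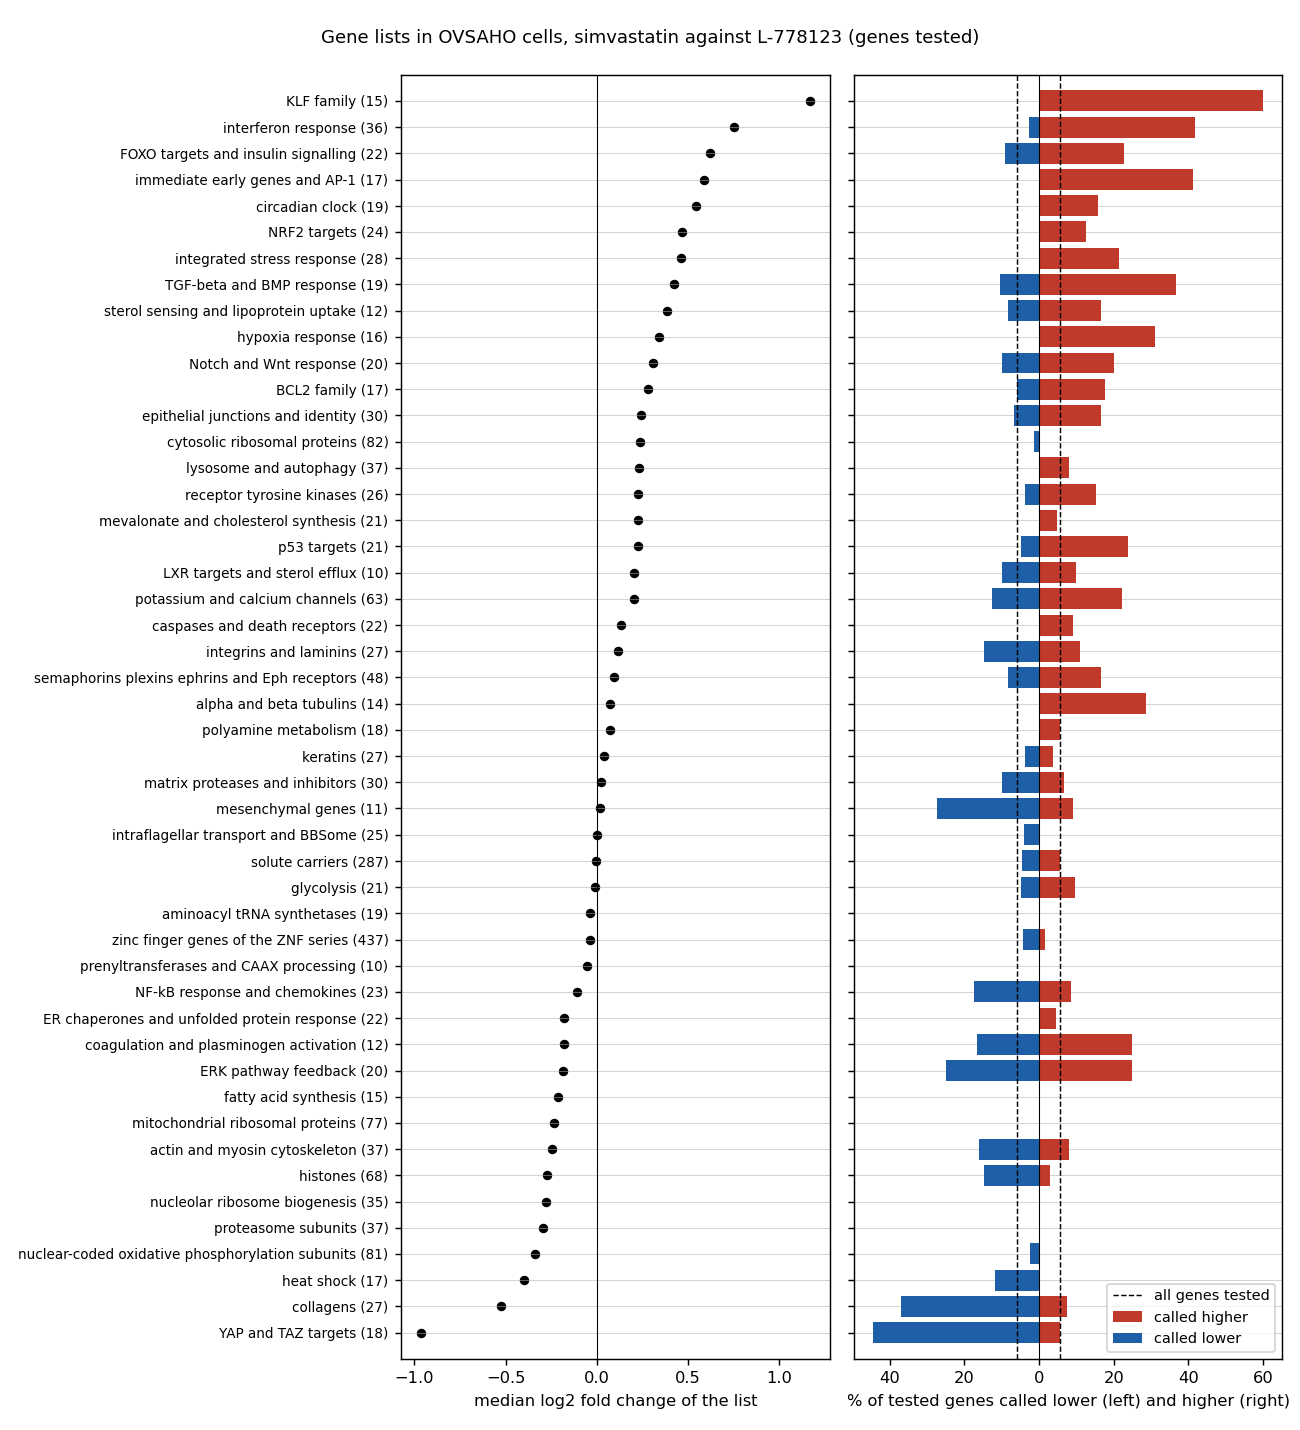
For each of 48 gene lists (number of genes tested in parentheses), the median log2 fold change with simvastatin over L-778123 (left) and the percentage of its genes called lower (blue) and higher (red) (right). Dashed lines mark the 5.87% lower and 5.72% higher over all genes. The KLF family reaches furthest to the right, with 60% of 15 genes called higher and a median of 1.17, and the YAP and TAZ targets furthest to the left, with 44.4% of 18 called lower and a median of -0.97.

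The Krüppel-like factors are zinc finger proteins that bind GC-rich promoters and act in differentiation and quiescence. Of 15 KLF genes tested, 9 rose and none fell, beside 5.72% and 5.87% over all genes, and the median log2 fold change was 1.17, or 0.71 with normexp. After KLF2, KLF6 had levels of 6.09 and 6.02 with simvastatin and 2.74 and 2.79 with L-778123, a log2 fold change of 3.29 (SE 0.060, adjusted p = 8.43e-06), and both of its probes rose. KLF7 was not well above background with L-778123, which makes it at least 2.57-fold higher, and it was not called with normexp (0.93). KLF13, a repressor, rose by 1.68, with levels of 6.01 and 6.03 against 4.27 and 4.41. KLF5, an epithelial factor of proliferation, read 1.44 and 1.33 against 1.42 and 1.57 and did not pass, with an interval of -0.30 to 0.08. KLF10 had a log2 fold change of 0.85 and was not called either.

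Interferon-stimulated genes encode proteins of antiviral defence. Of 36 on the list, 15 rose and 1 fell (median 0.76), which is 41.7% and 2.78% beside 5.72% and 5.87% over all genes. OASL, an OAS-like antiviral protein, had levels of 1.63 and 1.64 with simvastatin and -1.55 and -1.62 with L-778123, a log2 fold change of 3.22 (SE 0.066, adjusted p = 8.43e-06). GBP2, a guanylate-binding GTPase, read 1.51 and 1.43 against -1.46 and -1.44. For both genes arrays of one drug lay close together and the drugs did not overlap, as in 81.7% of all genes tested. RSAD2, viperin, rose by 2.18 and IRF9, the DNA-binding part of the ISGF3 complex, by 1.92 (SE 0.11). GBP1 went the other way, with levels of -3.50 and -3.05 against -0.59 and -0.82, and fell by 2.57 (SE 0.16, adjusted p = 1.14e-04). STAT2 and IRF1, factors of the pathway, had log2 fold changes of 0.12 and 0.53 and were not called. The guanylate-binding proteins of the list thus went opposite ways.

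Interferon genes share the element that ISGF3 binds, so the promoters were searched for its core letters, TTTCNNTTT, on both strands, from 250 bases before to 50 after the RefSeq start (GRCh38.p14). The letters were chosen after the list's values were seen. They occurred in 21 of 28 promoters of the list with an entry (75%), against 7.39% of 12606 promoters of tested genes, 7.13% of those of genes that rose and 10.7% of those that fell. On the list, promoters of members that were not called held the letters too, as in IFIT1 and IFIT3 with log2 fold changes of 0.51 and 0.58. IRF9, RSAD2 and PARP9 rose and had no match in this window. The promoters below, picked after their values were seen, show 3 genes that rose (MX1 by 1.75, OAS1 by 1.82 and IFI44L by 1.73) beside GBP1, which fell. Capitals mark the match.
MX1 (chr21:41420308-41420607, plus strand): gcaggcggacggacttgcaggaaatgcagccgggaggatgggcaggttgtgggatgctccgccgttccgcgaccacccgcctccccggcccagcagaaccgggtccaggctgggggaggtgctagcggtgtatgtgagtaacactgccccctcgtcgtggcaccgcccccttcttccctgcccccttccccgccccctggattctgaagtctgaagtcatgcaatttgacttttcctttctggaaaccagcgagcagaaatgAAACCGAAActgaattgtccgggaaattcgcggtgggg
OAS1 (chr12:112906712-112907011, plus strand): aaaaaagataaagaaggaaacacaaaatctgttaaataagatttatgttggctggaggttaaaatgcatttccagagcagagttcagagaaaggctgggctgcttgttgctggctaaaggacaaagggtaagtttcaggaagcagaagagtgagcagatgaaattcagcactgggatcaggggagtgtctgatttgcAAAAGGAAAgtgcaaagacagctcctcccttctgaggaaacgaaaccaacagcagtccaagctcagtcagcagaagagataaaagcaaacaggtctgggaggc
IFI44L (chr1:78620198-78620497, plus strand): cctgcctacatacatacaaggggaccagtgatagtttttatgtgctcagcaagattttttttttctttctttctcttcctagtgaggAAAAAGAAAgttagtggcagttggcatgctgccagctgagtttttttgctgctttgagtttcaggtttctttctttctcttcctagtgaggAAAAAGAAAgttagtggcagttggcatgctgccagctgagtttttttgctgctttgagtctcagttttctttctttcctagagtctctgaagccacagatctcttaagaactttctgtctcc
GBP1 (chr1:89065159-89065458, minus strand): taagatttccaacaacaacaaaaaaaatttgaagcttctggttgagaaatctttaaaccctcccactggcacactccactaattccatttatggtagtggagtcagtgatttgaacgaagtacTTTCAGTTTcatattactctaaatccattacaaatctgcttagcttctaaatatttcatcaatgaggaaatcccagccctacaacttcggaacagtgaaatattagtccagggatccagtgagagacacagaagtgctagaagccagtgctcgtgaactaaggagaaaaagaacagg
Counted from the start site, the match began at position 12 in MX1, -53 in OAS1 and -127 in GBP1, and IFI44L held 2, at -163 and -72, in a stretch that its promoter repeats.

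In all, 15 motifs were searched the same way in promoters of called genes and in all 12606. The AP-1 letters TGACTCA were in 7.28% of 687 promoters of genes that rose and 4.75% of 737 of genes that fell, against 3.56% of all. The letters TTTGAA, the cell cycle homology region of late cell cycle genes, were in 20.2% of promoters of genes that fell, 10.9% of those that rose and 10.5% of all. With the cell cycle lists left out the share among genes that fell was 17.2%. The TEAD letters GGAATG were in 16.0% of promoters of genes that fell and 10.5% of those that rose, against 11.4%. The TATA box TATAAA was in 9.75% of promoters of genes that rose and 9.63% of genes that fell, against 7.01%. The FOXO letters GTAAACA were in 3.64% and 2.17%, against 2.27%. The CCAAT box, whose letters are its name, was in 30.4% and 43.3%, against 36.3%. Of the E2F letters, TTCCCGC was in 5.39% and 12.8%, against 9.61%, and TTGGCGC in 3.20% and 6.38%, against 4.60%. With the cell cycle lists left out, the shares among genes that fell were 38.4% for CCAAT, 9.85% for TTCCCGC and 3.51% for TTGGCGC. The E-box CACGTG was in 10.6% and 7.87%, against 9.62%. The antioxidant response element TGACNNNGC was in 106 of the 687 and 103 of the 737, against 1894 of all. Shares of the cAMP response element TGACGTCA were 2.77% and 3.53%, against 2.96%, and of the KLF letters GGGTGTGG 3.20% and 3.66%, against 3.06%. The sterol response core TCACCCCAC and the amino acid response element TGATGCAAT were rare, in 0.436% and 0.151% of all. These shares are descriptions of letters and were not tested.

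FOXO factors are held out of the nucleus by insulin and AKT signalling and drive genes of fasting and cell cycle exit. Of 22 FOXO targets and insulin signalling genes, 5 rose and 2 fell (median 0.62), which is 22.7% and 9.09% beside 5.72% and 5.87% over all genes. PDK4, a kinase of pyruvate dehydrogenase, had levels of 3.72 and 3.66 with simvastatin and 0.46 and 0.49 with L-778123, a log2 fold change of 3.21 (SE 0.056, adjusted p = 8.42e-06). FBXO32, the ubiquitin ligase atrogin-1, rose by 2.28, IGF1R, the receptor of insulin-like growth factors, by 1.55 and FOXO4 by 1.36 at 1 of its 2 probes. FOXO1 and FOXO3 were at 0.64 and 0.72 and were not called. GADD45A, a stress gene of the same list, read 3.05 and 2.97 against 4.30 and 4.22 and fell by 1.25, and PIK3R3, a regulatory subunit of PI3-kinase, fell by 1.24 (-0.90 and not called with normexp).

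**Figure D4:**
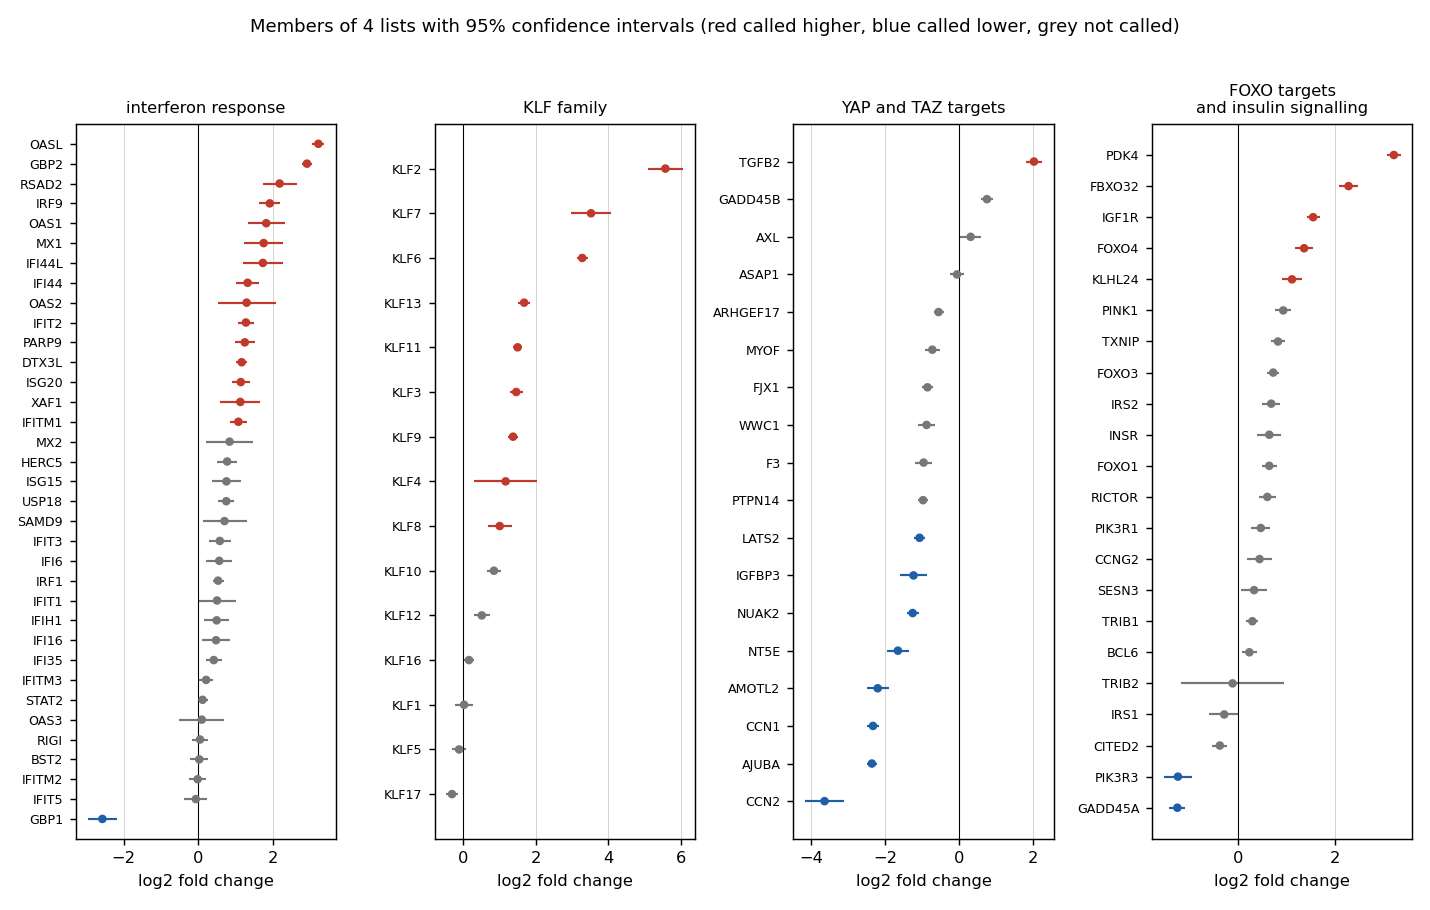
Log2 fold change with simvastatin over L-778123 of the tested members of 4 lists (35 of 36 of the interferon response), with 95% confidence intervals of the limma fit as horizontal lines. Red members were called higher (15 of the interferon response, 9 of the KLF family, 1 of the YAP and TAZ targets, 5 of the FOXO list), blue members lower (1, 0, 8 and 2), and grey members were not called, KLF2 lying highest at 5.58 and CCN2 lowest at -3.63.

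Genes of apoptosis were called in each of 3 lists. Of 17 BCL2 family genes, 3 rose and 1 fell (median 0.28), which is 17.6% and 5.88% beside 5.72% and 5.87% over all genes. Beside BBC3, BOK rose by 1.35 and HRK, another BH3-only protein, by 1.25, with levels of 0.15 and 0.26 against -1.08 and -1.005. BCL2, the founding inhibitor of apoptosis, had levels of -2.86 and -2.93 with simvastatin and -0.40 and -0.39 with L-778123, and fell by 2.50 (SE 0.091, adjusted p = 2.48e-05) at both of its probes. BCL2L11, MCL1 and BCL2L1 had log2 fold changes of 0.80, -0.02 and -0.58 and were not called. Of 22 caspase and death receptor genes, TNFSF10 and TNFRSF1A (1.13) rose and none fell, which is 9.09% beside 5.72% over all genes. The p53 list counted 5 genes higher (23.8%) and 1 lower (4.76%) of 21. CDKN1A, the cell cycle inhibitor p21, was above background with simvastatin only and at least 9.29-fold higher. The filter thus set its direction, and its adjusted p of 2.27e-05 in the limma fit rests on signals near background with L-778123. BTG2 rose by 1.53 and TP53I3 by 1.44, PLK2 fell by 2.10, and MDM2, the p53 ligase, did not pass (-0.39 and -0.52 against -0.44 and -0.30).

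Lists of the cellular stress responses were described beside the 5.72% higher and 5.87% lower over all genes, and differences between the lists were not tested. Of 28 genes of the integrated stress response, 6 rose and none fell (median 0.47). NUPR1, a stress-induced chromatin protein, read 3.41 and 3.50 against 0.69 and 0.75 and rose by 2.74 (SE 0.073, adjusted p = 1.39e-05). GDF15, a stress cytokine, rose by 2.61, with levels of 5.39 and 5.47 against 2.77 and 2.87, DDIT3, the factor CHOP, by 1.80 and TRIB3 by 1.65. ATF4 itself had 0.92 and ASNS, asparagine synthetase, 0.16, neither called, and 0 of 19 aminoacyl tRNA synthetases were called. Of 22 genes of the unfolded protein response only EIF2AK3, the kinase PERK, was called, at 1.07 (0.92 and not called with normexp). The heat shock list had 0 higher and 2 lower of 17, HSPA2 at -1.5025 and HSPA4L at -1.34. Of 24 NRF2 targets, HMOX1, the inducible heme oxygenase, rose by 2.56 (2.89 on both simvastatin arrays against 0.26 and 0.40), PIR rose by 1.04 and AKR1C1 was at least 2.38-fold higher. The last pair were not called with normexp, at 0.96 for PIR and 0.60 for AKR1C1.

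Immediate early genes are transcribed within minutes of a stimulus. Of 17, 7 rose and none fell (median 0.59), which is 41.2% higher beside 5.72% higher and 5.87% lower over all genes. JUNB had levels of 0.18 and 0.16 with simvastatin and -1.70 and -1.80 with L-778123 and rose by 1.92. JUND rose by 1.72, ZFP36, which destabilises AU-rich mRNAs, by 1.71 and JUN by 1.17, while FOS at 0.45 and FOSL1 at -0.66 were not called. Feedback genes of the ERK cascade moved both ways, with 5 higher and 5 lower of 20, 25% each. DUSP6, a phosphatase of ERK, read 2.38 and 2.31 against 4.53 and 4.55 and fell by 2.19 (SE 0.068, adjusted p = 1.75e-05). DUSP5, another ERK phosphatase, read 0.37 and 0.41 against -1.53 and -1.55 and rose by 1.93. The 2 phosphatases thus had opposite signs, with no overlap in either, as in 81.7% of all genes tested. EPHA4 rose by 3.63 and DUSP1 by 1.43, EPHA2 fell by 1.80, ETV1 by 1.73 and PHLDA1 by 1.36, the last pair not called with normexp (-0.86 for ETV1 and -0.40 for PHLDA1).

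TGF-beta and BMP ligands signal through SMAD proteins, whose targets include the ID genes. Of 19 genes of this list, 7 rose and 2 fell (median 0.42), which is 36.8% and 10.5% beside 5.72% and 5.87% over all genes. ID1, an inhibitor of helix-loop-helix factors, had levels of 7.63 and 7.62 with simvastatin and 5.24 and 5.28 with L-778123, a log2 fold change of 2.37 (SE 0.056, adjusted p = 1.21e-05), and ID3 rose by 2.09. Of the ligands, TGFB2 rose by 2.02 and TGFB1 by 1.79 (0.89 and not called with normexp). FST, follistatin, which binds activins, was above background with L-778123 only and at least 9.58-fold lower. The filter thus set its direction, and its adjusted p of 3.94e-04 in the limma fit rests on signals near background with simvastatin. SMAD6, an inhibitory SMAD, fell by 1.18. Among 23 genes of the NF-kB response, 2 rose (8.70%) and 4 fell (17.4%), with a median of -0.11, or 0.011 with normexp. Beside CCL2, CXCL1 fell by 1.84 at both probes and ICAM1, an adhesion receptor for leukocytes, by 1.58. CXCL10, an interferon-induced chemokine, was above background with L-778123 only and at least 1.13-fold lower. Its sign turned, with a fitted log2 fold change of -2.01 here and 0.027 with normexp, neither of them a bound. CCL5 was at least 3.65-fold higher and IL11 rose by 1.13, but CCL5, IL11 and ICAM1 were not called with normexp (0.86, 0.47 and -0.49), nor was IL11 by Tukey's test or without L-778123 array 2 (0.80).

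YAP and TAZ are coactivators of TEAD factors that enter the nucleus when cells spread. Of 18 targets, 8 fell and 1 rose (median -0.97), which is 44.4% and 5.56% beside 5.87% and 5.72% over all genes. AJUBA, a LIM protein of adhesion sites, had levels of 1.69 and 1.63 with simvastatin and 4.02 and 4.01 with L-778123, a log2 fold change of -2.36 (SE 0.057, adjusted p = 1.30e-05). CCN1, the matricellular protein CYR61, read 2.34 and 2.40 against 4.69 on both L-778123 arrays and fell by 2.32. Both genes, and CCN2 above, showed no overlap between the drugs, as did 81.7% of all genes tested. AMOTL2, an angiomotin that binds YAP, fell by 2.20 (SE 0.12). TGFB2 was the 1 member that rose, and AXL, a receptor kinase, was not called at 0.31.

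In the actin and myosin list, 6 of 37 genes fell and 3 rose (median -0.24), which is 16.2% and 8.11% beside 5.87% and 5.72% over all genes. CALD1, caldesmon, read 3.07 and 3.09 against 5.58 and 5.45 and fell by 2.44 (SE 0.070, adjusted p = 1.45e-05). MYL9, the regulatory light chain of non-muscle myosin, fell by 2.04 and TPM1, a tropomyosin, by 1.73 at all 3 probes. TGFB1I1, a focal adhesion LIM protein also called HIC5, rose by 2.21, with levels of 2.93 and 2.92 against 0.66 and 0.77. Of 27 collagens, 10 fell (37%) and 2 rose (7.41%). Their median of -0.53 was -0.095 with normexp and -0.27 without simvastatin array 2. COL12A1, a fibril-associated collagen, read 1.48 and 1.61 against 3.94 and 3.78 and fell by 2.32 at both probes, COL11A2 fell by 1.65 and COL26A1 by 1.51. COL4A6, a basement membrane collagen, was above background with L-778123 only and at least 3.06-fold lower, but was not called with normexp (-0.40).

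Of 27 integrins and laminins, 3 rose and 4 fell, which is 11.1% and 14.8% beside 5.72% and 5.87% over all genes. The epithelial integrin pair ITGA6 and ITGB4, which anchors hemidesmosomes, rose together by 1.60 and 2.02, ITGB4 with levels of 5.89 and 5.90 against 3.81 and 3.94, and so did the laminin chain LAMB3 (1.56). ITGB8 fell by 1.71, ITGA1 by 1.79 (-0.62 and not called with normexp), and LAMA3 by 1.67 at the probe read, though by 0.86 as the median of its probes, which was not called. Of 30 epithelial genes 5 rose (16.7%) and 2 fell (6.67%). ELF3, an epithelial ETS factor, rose by 2.16, the cadherin CDH3 by 1.79, the desmocollin DSC2 by 1.60 and the tight junction claudin CLDN4 by 1.59 (8.17 and 8.26 against 6.6003 and 6.65). CLDN1 fell by 1.43 and EHF by 1.37. Mesenchymal genes had 1 higher (9.09%) and 3 lower (27.3%) of 11. VIM, vimentin, was higher by 1.14, and TNC, tenascin C, SPARC and THY1 were lower at -2.12, -1.58 and -1.19, of which THY1 was not called with normexp (-0.88). In the keratins 1 rose and 1 fell of 27, 3.7% each and below the shares over all genes. These were KRT16 at 2.65 and KRT4 at -1.57 (-0.95 and not called with normexp). Of 12 coagulation genes, PLAUR, the urokinase receptor, rose by 1.78, with 1 of 2 L-778123 arrays above background, and PLAT by 1.67, while F2RL2 fell by 2.37 and TFPI2 by 1.59. PLAUR was not called with normexp (0.70) or Tukey's test.

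Lists of oxidative phosphorylation, ribosomes and the proteasome held few calls, beside 5.72% higher and 5.87% lower over all genes. Of 81 oxidative phosphorylation subunits 0 rose and 2 fell (median -0.34), ATP5MC1 by 1.29 (SE 0.079) and UQCRH by 1.01, a call that 6 of the 18 other settings ended. None of 77 mitochondrial ribosomal proteins (median -0.23), 37 proteasome subunits (-0.30) or 35 nucleolar ribosome biogenesis genes (-0.28) was called. The 82 cytosolic ribosomal protein genes had a median of 0.24, or 0.01 with quantile normalization and in the value table, with 1 call, RPL27A at -1.03, which was not called with normexp (-0.84) or without simvastatin array 2 or L-778123 array 2 (-0.99 each). Glycolysis genes were split, 2 higher and 1 lower of 21 (median -0.01), and SLC16A3, the lactate exporter MCT4, was the largest, with levels of 1.00 and 1.17 against -1.25 and -1.36. Of 16 hypoxia genes 5 rose, which is 31.2% (median 0.34, or 0.19 with probes well above background on all 4 arrays). Among them BHLHE40 rose by 1.88 and CA12 was at least 2.07-fold higher (0.76 and not called with normexp). The circadian list had 3 of 19 higher (15.8%), among them BHLHE40 and PER1 (1.14, and 0.97 and not called with normexp). Lysosomal and autophagy genes had 3 of 37 higher (8.11%). These were SQSTM1, the receptor p62, at 1.66, GABARAPL1 at 1.39 and TFEB at 1.55, the last at 0.76 and not called as the median of its probes. Histone genes fell in 10 of 68 cases (14.7%) and rose in 2 (2.94%). H1-1, a linker histone, read -0.50 and -0.61 against 2.19 and 2.28.

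Of 63 potassium and calcium channel genes, 14 rose and 8 fell, which is 22.2% and 12.7% beside 5.72% and 5.87% over all genes. The list is dim, with a median level between -2.37 and -1.99 on the 4 arrays, and among the genes with the lowest levels 9.75% were called higher and 9.11% lower. KCNMB2, a beta subunit of the BK channel, had levels of 0.36 and 0.51 with simvastatin and -2.59 and -2.43 with L-778123 and rose by 2.94 (SE 0.081, adjusted p = 1.39e-05). KCNK2, the mechanosensitive channel TREK-1, read -3.35 and -3.40 against -0.47 and -0.56 and fell by 2.86. The 2 channel genes went opposite ways. In both the drugs did not overlap, as in 81.7% of all genes tested. Of 14 alpha and beta tubulins 4 rose and none fell, led by TUBB3, the neuronal class III beta tubulin, at 5.02 and 5.05 against 1.94 and 2.06 (log2 fold change 3.04, adjusted p = 1.03e-05), with TUBB2A at 1.29 and TUBB2B at least 3.01-fold higher (0.77 and not called with normexp). In the axon guidance list 8 rose and 4 fell of 48, with SEMA6C at 1.84 and SEMA5A at -2.72. The 287 solute carriers were called at about the background, 5.57% higher and 4.53% lower, and the 437 ZNF genes below it, 1.60% higher and 4.35% lower.

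Lineage markers of serous carcinoma showed 1 of 16 genes higher (6.25%) and 2 lower (12.5%), beside 5.72% and 5.87% over all genes. MUC16, which carries the CA-125 antigen, had levels of 2.70 and 2.92 with simvastatin and 0.63 and 0.64 with L-778123 and rose by 2.17 at 1 of its 2 probes. CDH6, a cadherin of kidney and ovary, read 2.11 and 2.13 against 4.73 and 4.67 and fell by 2.58 (SE 0.055, adjusted p = 9.75e-06), and FOLR1, the folate receptor, fell by 1.16 from a high level of 8.37 and 8.39. WT1 and SOX17 were at 0.22 and 0.54 and were not called. Of the markers of other cell types, VWF, von Willebrand factor, fell by 3.30 at 1 of its 2 probes, from levels of -0.55 and -0.61, TEK was at least 1.95-fold higher (0.72 on the log2 scale and not called with normexp, 0.97 and not called with a floor on low signals), UPK3B had -1.58 and THY1 -1.19. The leukocyte marker PTPRC read between -3.02 and -2.76 on the 4 arrays and did not differ beyond its error (adjusted p = 0.74). The part of other cell types in these values was not tested.

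Genes that are neighbours on a chromosome and were called the same way made 31 runs of at least 3, of which 15 rose and 16 fell. The longest held 5 genes, CCDST, FLG, FLG2, CRNN and LCE5A of the epidermal differentiation complex on chromosome 1, which all fell, and DSCAML1, FXYD2, FXYD6, IL10RA and TMPRSS4 on chromosome 11, which all rose. The secretoglobins SCGB1D1, SCGB2A1 and SCGB1D2 on chromosome 11 rose as a run, and so did WFDC9, WFDC11 and WFDC10B on chromosome 20. Neighbours were taken among tested genes in the RefSeq order, the number of runs was not tested, and neighbouring probes can read overlapping RNA.

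Of 4412 genes with several probes, 416 were called at the probe read and 248 of these had all probes called the same way, while 213 genes that were not called had another probe that was. For 2 genes probes were called in opposite directions. NYNRIN fell by 1.24 (adjusted p = 0.0039) at one probe and rose by 1.43 (adjusted p = 0.0034) at another, and RNF32-DT fell by 1.16 (adjusted p = 0.030) and rose by 1.73 (adjusted p = 1.38e-04). Such probes can read different transcripts of a gene.

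The same contrast in KURAMOCHI showed where the OVSAHO values stood apart. There 767 of the tested genes were called. Of the 931 genes that rose in OVSAHO, 163 were called higher in KURAMOCHI too and 16 lower, and of the 956 that fell, 247 were called lower and 8 higher. The remaining 752 and 701 were not called, which does not show that they differ between the lines. Of the 15 named genes that rose most, 7 rose in KURAMOCHI, and of the 15 that fell most, 5 fell. DEPP1 rose by 2.33 there and TNFSF10 by 2.41, while MIR7-3HG had 0.10, TMPRSS4 0.09 and C11orf96 -0.23, none of these 3 called. The difference between the lines passed an adjusted p of 0.05 for 29 of the 30, KLF2 being the exception (adjusted p = 0.085), and since the 30 were chosen for their size in OVSAHO, the smaller values in KURAMOCHI follow in part from that choice. The share of all tested genes that passed is not given here. The filter rested on the OVSAHO arrays alone, and whether the 30 were above background in KURAMOCHI is not given here. A gene near background there would show little difference between the drugs. KLF6 rose by 3.29 in OVSAHO against 0.25 in KURAMOCHI, a difference of 3.03 (adjusted p = 1.06e-04), and TUBB3 had -0.36 in KURAMOCHI, a difference of 3.40. In the other direction, DHCR7, a reductase of cholesterol synthesis, had -0.12 in OVSAHO and 1.52 in KURAMOCHI, a difference of -1.65 (adjusted p = 3.14e-04). LINC02593 rose by 3.58 in KURAMOCHI, close to its 3.56 in OVSAHO, and GBP1 fell there by 2.36. As all arrays share 1 slide, the lines were compared within it.

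**Figure D5:**
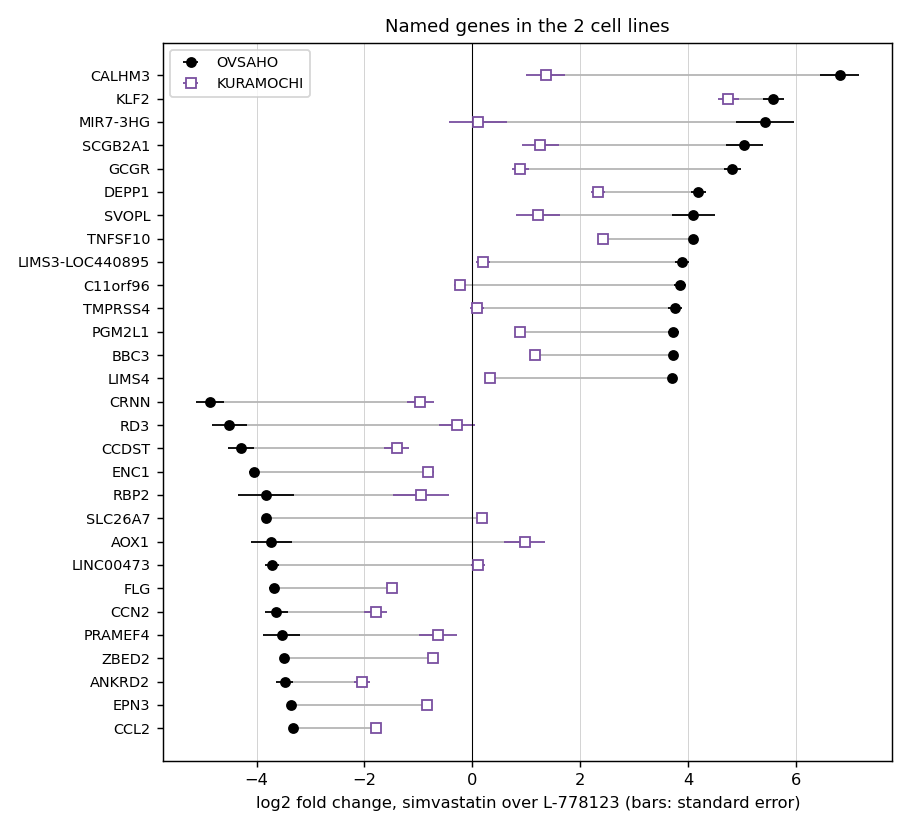
Log2 fold change with simvastatin over L-778123 of 29 of the 30 named genes in OVSAHO (black circles) and KURAMOCHI (open purple squares), with standard errors as horizontal bars and a grey line joining the pair. OVSAHO values run from -4.86 for CRNN to 6.81 for CALHM3, KLF2 lies at 5.58 and 4.74 in the 2 lines, and MIR7-3HG lies at 5.42 and 0.10.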

How the data were processed

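Total RNA of OVSAHO and KURAMOCHI cells was hybridised to 1-colour Agilent 60K arrays, 2 per line and drug. Per the file headers, the deposited scanner files come from Feature Extraction 11.5.1.1, and their processed signal, an intensity, is corrected for background by that software. The value table that the authors deposited holds intensities whose sorted values were the same on all arrays (largest gap 0.000764 on the log2 scale, against 0.643 for the scaled scanner signals), that is, quantile normalized, and correlated with the scanner values at 0.999 or more. It was used as an alternative.

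Outlier spots (58 to 99 per array) and control spots were left out, spots of one probe were averaged, and the 75th percentile over the probes of an array was subtracted from the log2 of the deposited intensity. Of 58162 probes, 31863 (54.8%) passed the filter, which asked for the software's flag of being well above background on the pair of arrays of at least one OVSAHO group. Of 50069 transcript identifiers on the array, 24768 were named through RefSeq (GRCh38.p14), and a gene was read at its tested probe with the highest mean OVSAHO signal. A fit with limma 3.58.1 (R 4.3.3) over the 4 groups of 8 arrays gave the OVSAHO contrast, with Benjamini-Hochberg adjustment over 31863 probes and a fold of at least 2. It was tested on simulated data. For a probe not well above background with one drug, the fold is "at least" the mean of the bright arrays over, per dim array, the higher of the probe's signal and the lowest signal well above background. The number of arrays limits the precision, and a scanner intensity carries no depth. Other tools were Python 3.11.15, pandas 2.3.3 and matplotlib 3.10.9.

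Named were the 15 genes with the highest and the 15 with the lowest log2 fold change among called genes above background on all 4 arrays, outside the cell cycle lists and 21 genes that the paper names or tabulates, the 6 largest bounds for each drug, the 6 genes with the largest fitted change whose symbol has a noncoding form (LINC, MIR, -AS, -DT, -IT), genes with opposing probes, and up to 4 genes called in each direction on each list, with members that did not pass. The members and the gene lists were chosen with earlier results of these data known, so the lists were described by counts and medians and not tested. Alternatives covered background correction (normexp with an offset of 50, on the median spot signal), scaling, the filter, a floor, the value table, the samples in the fit, a replicate block, the probe rule, thresholds, Tukey's test in the analysis of variance that the methods name, and each array left out. Little pairing of the arrays by replicate number was visible, as given in the closing section. Some genes and gene lists that these rules took in are not reported here.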

Additional observations from a re-analysis of the deposited data

Results flagged for a closer look

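For 5 named genes the response was called in opposite directions in the 2 lines, and the difference of the responses itself passed the limma fit. TGFB1I1 rose by 2.21 in OVSAHO and fell by 1.09 in KURAMOCHI (levels of 2.80 and 2.77 with simvastatin and 3.91 and 3.86 with L-778123), a difference of 3.30 (adjusted p = 9.52e-05). DUSP5 rose by 1.93 and fell by 1.22 (-0.66 and -0.67 against 0.54 and 0.58), a difference of 3.15 (adjusted p = 8.70e-05). CNN1, a smooth muscle calponin, rose by 1.11 from -3.36 and -3.43 to -2.28 and -2.29 in OVSAHO and fell by 1.90 in KURAMOCHI, a difference of 3.01 (adjusted p = 4.04e-04), and its OVSAHO call was lost with normexp correction (0.67). ETV1 fell by 1.73 in OVSAHO and rose by 1.21 in KURAMOCHI (-1.36 and -1.29 against -2.44 and -2.63), a difference of -2.94 (adjusted p = 2.55e-04), and it too was not called in OVSAHO with normexp (-0.86). TUBA4A, an alpha tubulin, rose by 1.43 in OVSAHO, or by 0.73 and uncalled as the median of its probes, and fell by 1.22 in KURAMOCHI, a difference of 2.65 (adjusted p = 2.10e-04). All of these probes were well above background on the 4 KURAMOCHI arrays. Of the 220 named genes, 175 differed between the lines at an adjusted p under 0.05, 129 with the same direction and a larger size in OVSAHO, where they were chosen for their size, 3 with a larger size in KURAMOCHI and 43 with opposite signs. The 43 include the 5 genes above, and an opposite sign alone does not need a call in KURAMOCHI. The share of all tested genes that differed between the lines is not given here. For the rest of the 220, detection in KURAMOCHI is not given, and a gene near background there would show little difference between the drugs. With 2 arrays a group, no array could be tested against its group.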

How the results depend on the processing

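Of 220 named genes, 156 kept their direction and call under each of 18 processing settings in which they were tested (22 could not be with the filter on all 4 arrays) and 64 lost the call in at least 1, of which normexp correction ended 56, Tukey's test 8, the median over probes 6, the floor 4 and leaving out one array between 4 and 8. CXCL10 turned its sign, to 0.027 with normexp. Of the 12 further genes named for a bound, LSP1 turned its sign, to -0.026 as the median of its probes, and the other settings ended no call of the 12, although the filter on all 4 arrays leaves none of them. Normexp correction, with its offset of 50, lowered the counts to 750 probes higher and 812 lower, and to 546 and 556 genes. A fold of at least 1.5 gave 3555 and 4193 probes and 2042 and 2025 genes, no fold threshold 7820 and 8456 probes and 4524 and 4683 genes, and a fold of at least 4 gave 352 and 458 probes and 217 and 211 genes. Leaving out each array gave 1452 to 1584 probes higher and 1800 to 2034 lower, and 889 to 948 and 909 to 965 genes. The deviations of arrays with the same replicate number correlated at -0.0065 in OVSAHO and 0.0017 in KURAMOCHI. Across the lines they correlated at 0.038 with simvastatin and 0.073 with L-778123. Little pairing by number was thus visible in the signals, which cannot show that none existed. With the replicate block the counts were 1515 and 1962 probes and 926 and 958 genes. It ended no call over the 4 groups and 1 (PLAUR) in the OVSAHO arrays alone. Of 58 list medians, 11 changed sign in some setting, the largest of them -0.27 (endothelial markers). Dim probes rest on signals near background, and the 2 arrays of a group may be technical repeats, so their calls are the least certain.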
